A study of Mus musculus with 6 samples.

Results

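The genes described here are 40 metallothionein, glutathione, thioredoxin and antioxidant genes, 3 of them genes of drug export pumps. They were chosen by symbol and matched to NCBI gene numbers, out of 16749 genes listed in at least 1 library. All 40 were matched, and 36 of them had reads in each of the 6 libraries. The RNA came from CD8+ T cells of C57BL/6 mice, purified by flow cytometry from a tissue that the labels call iLN. By the series title, the mice carried tumors and had been given oxaliplatin, a platinum compound that damages DNA. The 3 control libraries had the genotype Id2f/f, with floxed Id2 but without Cre (called WT here), and the 3 knockout libraries the genotype Cd4creId2f/f, which adds Cd4-Cre. All 6 libraries therefore share the floxed alleles, the tumors and the drug, and no untreated cells were analysed here. Cd4-Cre acts in T cells from the thymic stage at which CD4 and CD8 are both expressed. Since only the knockout group carried Cre, Cre and the loss of Id2 cannot be told apart. The labels give no age, tumor type, dose or time, and they do not say which animals the libraries of a group came from. The p-values thus measure the spread between these libraries, which may be technical.

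Metallothioneins are small proteins rich in cysteine that bind zinc and copper and can also bind platinum, and their genes are switched on by the zinc sensor MTF1. Glutathione, a peptide that holds a free thiol, is made from cystine that the carrier encoded by Slc7a11 brings into the cell. It is used by transferases, peroxidases and glutaredoxin, and is kept reduced by glutathione reductase. Peroxiredoxins remove peroxides and are recharged by thioredoxin, which thioredoxin reductase in turn reduces with NADPH. Many of these genes are targets of the transcription factor NRF2 (gene Nfe2l2), which KEAP1 holds in check. T cells that divide and become effectors are known to need both the glutathione and the thioredoxin systems.

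The libraries held between 7699181 and 8495123 expected counts. Levels are given as FPKM, a read count divided by transcript length and library size, as the authors deposited it. Where a table did not list a gene, the value used was 0. Id2 itself stood between 146.76 and 370.98 FPKM in WT and between 1.67 and 2.64 FPKM in knockout, which fits the labels. Of 8 T cell markers, the 7 that were listed, Cd3d, Cd3e, Cd3g, Cd8a, Cd8b1, Lck and Cd2, were abundant in each library, and none passed the test (0 by edgeR, also at an unadjusted p under 0.05, and 0 by DESeq2 or limma). Trac was listed in no table. Fold changes are knockout over WT on the log2 scale from edgeR's quasi-likelihood test, with p-values adjusted by the Benjamini-Hochberg method over the 10890 genes tested.

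Of the 40 genes, 15 fell in the knockout libraries and 0 rose. They were Mt1, Mt2, Mt3, Gstm5, Gstt1, Gsto1, Slc7a11, Gsr, Glrx, Prdx1, Prdx2, Prdx4, Txn1, Txnrd1 and Hmox1. That is 38.5% of the 39 genes tested, while 8.77% of all genes tested fell and 3.14% rose. The 40 genes were chosen with earlier results of these data known, so this comparison is not independent of the data. These shares of all genes moved when 1 library was left out. Without WT replicate 3, 5.18% fell and 1.11% rose, with 30.8% of the redox genes lower, and without knockout replicate 3, 4.75% fell and 0.771% rose, with 28.2% of the redox genes lower. With WT replicate 2 left out 1.93% of all genes rose, and with knockout replicate 1 left out 1.96% did. A gene was tested if it had at least 1 FPKM in at least 3 libraries. Of the 15, Mt2, Mt3, Gstm5 and Gstt1 met this only through the WT libraries, so the filter itself favored a fall in them. With such genes set aside, 11 of 35 genes (31.4%) fell, against 8.07% of all genes. The median log2 fold change of the 35 was -0.22 and that of all genes tested 0.01. No member was higher at an unadjusted p under 0.05 (0 by edgeR), and 0 rose by DESeq2 or limma. The other 24 tested genes had log2 fold changes from -0.34 to 0.61, of which 18 were negative. In bulk RNA, fewer cells of a kind and less RNA per cell cannot be told apart, which holds for each value here.

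**Figure D1:**
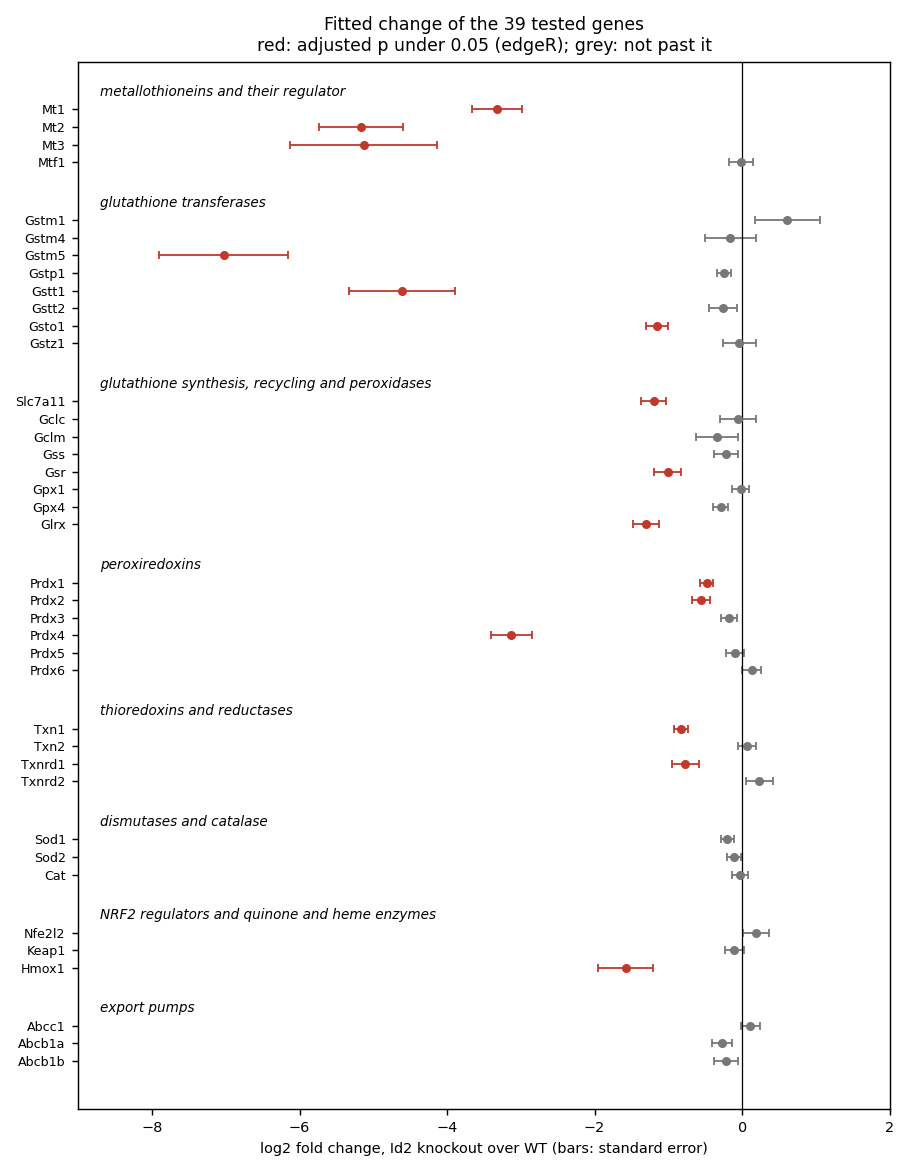
Log2 fold change of the 39 tested genes, knockout over WT, by role (x axis, log2 scale; bars are the standard error; red genes have an adjusted p under 0.05). All 15 red genes lie left of 0, from Gstm5, with a fitted value of -7.03 from 0 knockout reads, to Prdx1 at -0.48, and the grey genes lie between -0.34 and 0.61.

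In all 15 of these genes each knockout library lay below each WT library. Gstp1, Gpx4 and Sod1 were separated in the same way without passing the test, which gives 18 of 39 (46.2%), or 14 of 35 (40%) without the 4 genes tested only through WT. Over all genes tested, the knockout libraries lay wholly below WT in 16.8% and wholly above in 15.3%, and 0 of the 39 lay wholly above. Without genes tested only through WT, the share wholly below was 16% of all genes.

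Metallothionein transcripts were close to lost in the knockout. Mt1, Mt2 and Mt3 lie side by side on mm10 chromosome 8, between 94152607 and 94180327, and Mt1 and Mt2 are the widely expressed pair that responds to metals and stress. Sequence before the start of each gene in the RefSeq promoter table is shown because all 3 genes fell. For Mt2 and Mt3 it is the whole window of 250 bases. For Mt1 that table's start, 94179089, lies inside the RefSeq gene interval, which begins at 94178883 and holds 206 of the 250 bases, and GENCODE M21 begins the gene at 94179082. Only 30 bases of Mt1 that end before the GENCODE start are therefore shown. Sequences run 5′ to 3′ on the plus strand of GRCm38.p6 and come from RefSeq. Capitals mark matches to the core of the metal response element, the site that MTF1 binds, searched on both strands as TGCACNC or TGCGCNC.
Mt1, chr8:94179052-94179081: gggcggtcccgctgTGCACACtggcgctcc
Mt2, chr8:94172368-94172617: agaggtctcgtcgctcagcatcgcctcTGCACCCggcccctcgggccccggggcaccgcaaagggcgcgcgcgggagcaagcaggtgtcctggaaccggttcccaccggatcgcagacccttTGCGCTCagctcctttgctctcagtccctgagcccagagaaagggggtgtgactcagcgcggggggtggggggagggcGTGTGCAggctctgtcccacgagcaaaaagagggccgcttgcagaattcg
Mt3, chr8:94152357-94152606: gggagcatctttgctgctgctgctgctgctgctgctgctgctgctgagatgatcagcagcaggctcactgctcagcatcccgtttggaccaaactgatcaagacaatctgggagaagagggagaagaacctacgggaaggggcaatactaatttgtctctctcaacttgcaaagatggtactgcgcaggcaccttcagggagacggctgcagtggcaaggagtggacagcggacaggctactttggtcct
The Mt1 window holds 1 match, from 23 to 17 bases before that table's start and inside the RefSeq interval. The Mt2 window holds 3, which begin 223, 128 and 50 bases before it, the last of them on the opposite strand. The Mt3 window holds none. Of 32851 such windows in the RefSeq table, 21.4% hold at least 1 match and 1.26% at least 3, so a single match is common. Sites after the start were not searched.

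Mt1 (NCBI gene 17748) stood at 18.59, 18.77 and 17.91 FPKM in the WT libraries and at 0.9, 2.1 and 2.54 FPKM in the knockout libraries. The WT libraries were nearly alike, and none of the knockout libraries came near them. Mt1 fell 9.99-fold (log2 fold change -3.32, SE 0.339, adjusted p = 0.000341, edgeR), from 259 counts in WT to 24 in knockout. Mt2 (NCBI gene 17750) held 9.67, 11.98 and 7.26 FPKM in WT and 0.47, 0 and 0.24 FPKM in knockout. That is 129 counts against 3, whose ratio is 40 (exact 95% counting interval 13.4 to 197), and the fitted log2 fold change was -5.17 (SE 0.57, adjusted p = 0.000462, edgeR). The knockout group thus held too few Mt2 reads to fix the size of the fall. Without knockout replicate 1 it was -6.01. Its exons overlap those of an antisense gene, Gm45774, which was not analysed here.

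Mt3, which encodes the metallothionein known as a growth inhibitory factor of the brain, was the least abundant of the 3. It held 6.75, 3.22 and 1.65 FPKM in WT and 0, 0.25 and 0 FPKM in knockout, or 50 counts against 1. WT replicate 1 was well above the other WT libraries, and knockout replicate 2 held the single knockout read. The count ratio was 46.5 (exact 95% counting interval 7.98 to 1870) and the log2 fold change -5.13 (SE 0.998, adjusted p = 0.00893, edgeR). Leaving out WT replicate 1 made this -4.42, and leaving out knockout replicate 2 made it -7.04. Counting intervals cover counting error only, not the spread between samples. Summed over the 3 genes, the level went from 31.9 ± 4.46 FPKM (SD, n = 3) in WT to 2.17 ± 0.723 in knockout (SD, n = 3).

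Mtf1, the gene of their regulator, did not pass. Mtf1 stood at 2.76, 2.38 and 2.64 FPKM in WT and at 2.33, 3.05 and 2.38 FPKM in knockout, so the groups overlapped. Its log2 fold change was -0.02 (SE 0.164, adjusted p = 0.945, edgeR), and it was 0.06, 0.05 and 0.04 when WT replicate 1, then knockout replicate 1, then knockout replicate 3 was left out. The mRNA level says nothing of the activity of the protein.

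Glutathione transferases join glutathione to reactive compounds, and 3 of the 8 such genes among the 40 fell (8.77% of all genes did). Gstm5 and Gstt1 were tested only because WT was high, and without them 1 of 6 fell, with a median log2 fold change of -0.2. Gstm5 (NCBI gene 14866), a mu class transferase on chromosome 3 between 107895854 and 107898685, had no reads in the knockout group. The bases before its start are shown since it was the one gene that was at 0 in every knockout library, with the same capitals as above and without the last 33 of the window, which are exonic in GENCODE M21.
Gstm5, chr3:107895604-107895820: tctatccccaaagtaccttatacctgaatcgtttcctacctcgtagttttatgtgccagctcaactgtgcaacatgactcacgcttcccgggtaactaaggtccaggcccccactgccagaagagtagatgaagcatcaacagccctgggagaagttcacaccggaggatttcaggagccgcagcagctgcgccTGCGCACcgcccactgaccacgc
This window holds 1 match to the metal response core, on the same strand, from 56 to 50 bases before the start. Gstm5 held 2.41, 2.11 and 2.16 FPKM in WT, with 18, 16 and 16 counts, and 0 in each knockout library. Against a floor of 3 counts over the whole knockout group, the 50 WT counts gave a 15.5-fold fall (adjusted p = 0.00182, edgeR). That fold leaves out the counting error of the WT counts, so it is no strict lower limit. An antisense gene, 4933431E20Rik, overlaps its exons and stood at 0.697 FPKM in WT and 0.81 FPKM in knockout. Its neighbors of the mu class did not pass. Gstm1 held 0.73, 3.34 and 3.05 FPKM in WT and 3.47, 4.2 and 3.27 FPKM in knockout (log2 fold change 0.61, adjusted p = 0.413, edgeR), with WT replicate 1 below all other libraries. Gstm4 overlapped too, with a mean of 3.32 ± 1.29 FPKM in WT and 2.88 ± 0.89 in knockout (SD, n = 3), and its sign turned without WT replicate 1 (0.21) or knockout replicate 1 (0.06).

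Of the theta class, Gstt1 fell, Gstt2 did not pass, and Gstt3 and Gstt4 were too low to be tested. Gstt1 (NCBI gene 14871) held 3.12, 3.99 and 5.94 FPKM in WT and 0.48, 0 and 0 FPKM in knockout, where all 4 reads came from replicate 1. The count ratio of 113 to 4 was 26.3 (exact 95% counting interval 9.99 to 98.2) and the log2 fold change -4.61 (SE 0.72, adjusted p = 0.00276, edgeR). Without knockout replicate 1 the knockout group held no reads, and the fitted value of -8.2 is then no measure of size. Gstt2, which lies beside Gstt1 on chromosome 10, held 21.73, 21.1 and 18.49 FPKM in WT and 20.61, 13.46 and 17.54 FPKM in knockout (log2 fold change -0.26, adjusted p = 0.411, edgeR). Gstt3, from the list of other transferases, stood at 0.64, 1 and 1.93 FPKM in WT and 0.47, 0.21 and 0.07 FPKM in knockout, from 56 and 11 counts, and Gstt4 had 1 count in each group. Gstt3 did not overlap, and both were named after their values were seen. Whether Gstm5 and Gstt1 differ from their neighbors in the size of their change was not tested.

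Gsto1, an omega class enzyme that works as a thiol transferase, fell from a higher level. It held 34.79, 51 and 46.04 FPKM in WT and 17.62, 22.15 and 19.59 FPKM in knockout (log2 fold change -1.16, SE 0.151, adjusted p = 0.00095, edgeR). Gstp1, the pi class enzyme, was the most abundant of the family by far. Its 3 knockout libraries, at 243.7, 247.56 and 249.57 FPKM, lay just below the WT libraries at 262.39, 303.32 and 306.4 FPKM. The log2 fold change of -0.25 did not pass (SE 0.0932, adjusted p = 0.118, edgeR), and part of its reads was divided with near-identical copies. Gstz1, whose enzyme acts in tyrosine breakdown, had means of 6.47 ± 1.37 FPKM (WT) and 6.3 ± 1.16 FPKM (knockout; SD, n = 3), and its log2 fold change of -0.04 turned to 0.1 when WT replicate 2 was left out and to 0.08 when knockout replicate 1 was.

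**Figure D2:**
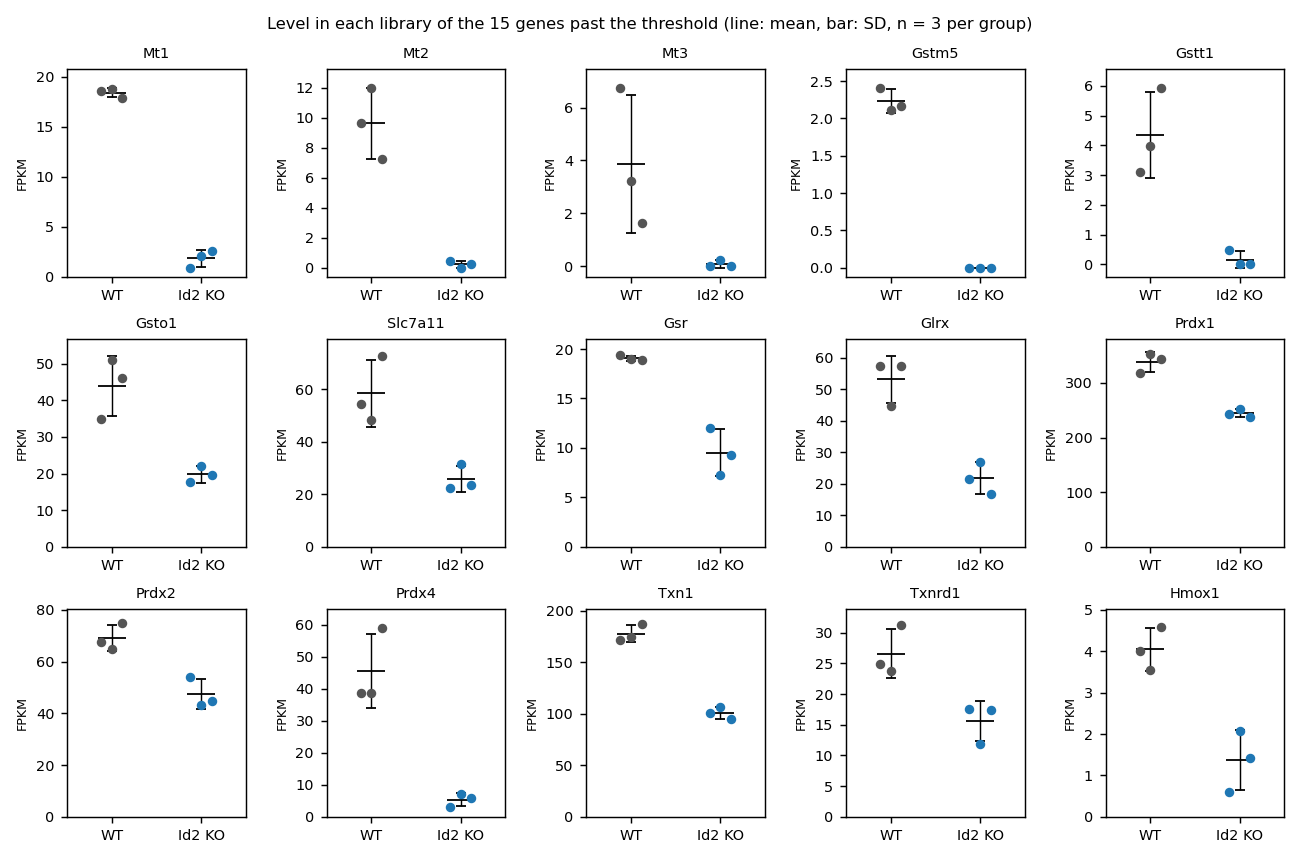
FPKM in each library (y axis, linear, a scale for each gene) of the 15 genes that fell, with WT in grey and knockout in blue. Lines are means and bars are SD over 3 libraries. In each panel the blue points lie below the grey ones, from Gstm5 at 0 in all 3 knockout libraries to Prdx1 at 238.34 to 252.39 against 318.65 to 352.87.

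In glutathione supply, the importer and the recycling enzymes fell and the synthesis enzymes did not pass. Slc7a11 encodes the transport subunit of the cystine and glutamate exchanger. It held 54.2, 48.27 and 72.55 FPKM in WT and 22.22, 31.61 and 23.56 FPKM in knockout. WT replicate 3 was the highest library, and the lowest WT library stood above the highest knockout library. The log2 fold change was -1.2 (SE 0.169, adjusted p = 0.00156, edgeR). Slc3a2, which encodes the partner chain of this exchanger, did not pass, with 356 ± 34.2 FPKM in WT and 390 ± 10.1 FPKM in knockout (SD, n = 3, adjusted p = 0.534, edgeR).

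Gclc and Gclm encode the catalytic and modifier subunits of the enzyme that limits glutathione synthesis. Gclc held 2.47, 4.81 and 3.5 FPKM in WT and 3.1, 3.78 and 3.57 FPKM in knockout, with the knockout libraries inside the WT range (log2 fold change -0.06, SE 0.24, adjusted p = 0.909, edgeR). Its sign turned without WT replicate 2 (0.19) or knockout replicate 1 (0.02), and with limma at a pseudocount of 0.1 it was 0. Gclm went from 5.28 ± 1.44 to 4.2 ± 1.33 FPKM (adjusted p = 0.493, edgeR), and Gss, which encodes the second enzyme of synthesis, from 9.43 ± 1.6 to 8.13 ± 0.257 FPKM (adjusted p = 0.446, edgeR; SD, n = 3 for each group).

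Gsr, the gene of glutathione reductase, held 19.37, 18.98 and 18.84 FPKM in WT and 12.06, 7.29 and 9.24 FPKM in knockout. The WT libraries were almost equal and the knockout libraries scattered below them, and the log2 fold change was -1.01 (SE 0.181, adjusted p = 0.00599, edgeR). Glrx encodes glutaredoxin, which removes glutathione from protein thiols. Its levels of 57.24, 44.5 and 57.42 FPKM in WT and 21.45, 26.97 and 16.85 FPKM in knockout did not overlap (log2 fold change -1.31, SE 0.176, adjusted p = 0.0012, edgeR).

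The peroxidases of this system were abundant and did not pass. Gpx1, the main cytosolic glutathione peroxidase, held 162.54, 159.83 and 157.21 FPKM in WT and 171.23, 138.15 and 168.38 FPKM in knockout (log2 fold change -0.02, adjusted p = 0.943, edgeR). Without WT replicate 1 or knockout replicate 2 that value was 0.03 or 0.09. Gpx4 repairs lipid peroxides in membranes and protects cells from ferroptosis. It held 154.93, 157.6 and 177.18 FPKM in WT and 143.36, 132.25 and 129.19 FPKM in knockout, groups that did not overlap (log2 fold change -0.29, SE 0.101, unadjusted p = 0.0172, adjusted p = 0.0969, edgeR).

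Of the 6 peroxiredoxin genes 3 fell (8.77% of all genes did), and Prdx4 had the largest fall. It encodes the family member of the endoplasmic reticulum, where it uses peroxide to help form disulfide bonds. Prdx4 (NCBI gene 53381, chromosome X from 155323918 to 155342272) held 38.85, 38.82 and 59.01 FPKM in WT and 3.17, 7.14 and 5.73 FPKM in knockout. It fell 8.73-fold, from 1117 counts to 120, and had the smallest adjusted p of the 39 genes (log2 fold change -3.13, SE 0.274, adjusted p = 0.000185, edgeR). Its share of the summed FPKM of all 6 went from 5.02%, 4.7% and 7.35% in WT to 0.487%, 1.06% and 0.911% in knockout. The groups did not overlap, which restates the fall of Prdx4 and is given with no test.

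Prdx1 and Prdx2, abundant peroxiredoxins of the cytosol, fell by less. Prdx1 held 318.65, 352.87 and 343.47 FPKM in WT and 243.33, 252.39 and 238.34 FPKM in knockout (log2 fold change -0.48, SE 0.0891, adjusted p = 0.00702, edgeR). Without knockout replicate 3 it was -0.46 and did not pass (adjusted p = 0.0568, edgeR). Prdx2 held 67.81, 64.78 and 74.8 FPKM in WT and 54.07, 43.35 and 44.86 FPKM in knockout (log2 fold change -0.56, SE 0.123, adjusted p = 0.0167, edgeR). This call ended without WT replicate 3 (-0.51, adjusted p = 0.0734) or knockout replicate 3 (-0.51, adjusted p = 0.0957). Exons of Prdx2 overlap those of Junb and Rnaseh2a on the other strand. Junb was far more abundant, with means of 646 FPKM in WT and 743 FPKM in knockout. Without use of strand, which the sources used here do not give, reads from such a pair cannot be told apart. Listed genes on the other strand also overlap the exons of Mtf1, Gss, Gstz1, Prdx5 and Txnrd2, which did not pass.

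The other peroxiredoxins did not pass. Prdx3, the mitochondrial member, held 63.1 ± 3.72 FPKM in WT and 56.2 ± 4.78 in knockout (SD, n = 3). Prdx5, found in mitochondria, peroxisomes and cytosol, held 95.2 ± 1.11 and 89.4 ± 9.64 FPKM (SD, n = 3), and its log2 fold change of -0.1 became 0 without knockout replicate 2. Prdx6, which uses glutathione in place of thioredoxin, was the second most abundant. It held 193.26, 212.75 and 162.72 FPKM in WT and 192.17, 243.4 and 191.96 FPKM in knockout, and was the family's only positive value (log2 fold change 0.13, adjusted p = 0.57, edgeR).

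The thioredoxin system showed a fall in the cytosolic pair, while the mitochondrial pair did not pass. Txn1 encodes cytosolic thioredoxin and held 171.97, 174.13 and 187.32 FPKM in WT and 101.09, 107.06 and 95.22 FPKM in knockout. It fell 1.78-fold with little spread in either group (log2 fold change -0.83, SE 0.0928, adjusted p = 0.00049, edgeR). Its mitochondrial relative Txn2 held 132.02, 137.13 and 155.91 FPKM in WT and 169.52, 134.86 and 145.18 FPKM in knockout (log2 fold change 0.07, adjusted p = 0.753, edgeR), and that value was -0.03 without knockout replicate 1. On the FPKM scale, each WT library thus held more Txn1 than Txn2, and each knockout library less.

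Txnrd1, the cytosolic reductase and a selenoprotein, held 24.83, 23.76 and 31.25 FPKM in WT and 17.58, 11.91 and 17.43 FPKM in knockout (log2 fold change -0.77, SE 0.178, adjusted p = 0.02, edgeR). The call was lost without WT replicate 3 (-0.64, adjusted p = 0.0918) or knockout replicate 3 (-0.84, adjusted p = 0.0531). Txnrd2, the mitochondrial reductase, stood at 7.5, 9.85 and 10.83 FPKM in WT and 11.19, 9.66 and 12.41 FPKM in knockout (log2 fold change 0.23, adjusted p = 0.456, edgeR).

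The same values are given within each library as a ratio of FPKM. The ratios were formed with the calls known, so they are descriptions with no test. Txn1 over Txn2 gave 1.3, 1.27 and 1.2 for the WT libraries and 0.596, 0.794 and 0.656 for the knockout libraries. For Txnrd1 over Txnrd2 the WT values were 3.31, 2.41 and 2.89 and the knockout values 1.57, 1.23 and 1.4. In both ratios all knockout libraries lay below all WT libraries. The superoxide dismutases, cytosolic Sod1 and mitochondrial Sod2, gave ratios of 34.4, 30.5 and 29.7 in WT and 28.3, 29.7 and 31 in knockout, which overlapped.

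**Figure D3:**
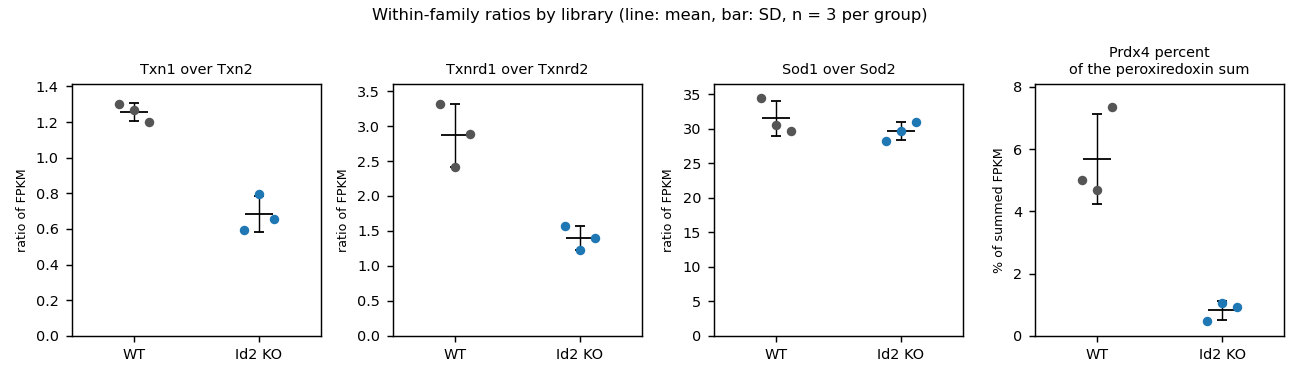
Ratios of FPKM within each library (y axes, linear, from 0) for the cytosolic over the mitochondrial gene, and the share of Prdx4 in the peroxiredoxin sum in percent. Lines are means and bars are SD over 3 libraries. WT and knockout separate in Txn1 over Txn2 (1.26 against 0.682 on average), in Txnrd1 over Txnrd2 (2.87 against 1.4) and in Prdx4, and overlap in Sod1 over Sod2.

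Genes of the enzymes that take apart superoxide and hydrogen peroxide did not pass. Sod1 was the most abundant of the 40 genes, with 881.98, 946.38 and 846.73 FPKM in WT and 767.21, 804.71 and 787.32 FPKM in knockout. The groups did not overlap, but the log2 fold change of -0.2 did not pass (SE 0.093, adjusted p = 0.206, edgeR). Sod2 held 28.4 ± 2.7 FPKM in WT and 26.6 ± 0.97 in knockout (SD, n = 3). Cat, the gene of peroxisomal catalase, held 43.19, 40.28 and 45.75 FPKM in WT and 45.72, 41.59 and 40.29 FPKM in knockout (log2 fold change -0.03, adjusted p = 0.877, edgeR). That value was 0.01 with WT replicate 1 left out, or with either replicate 2 or 3 of the knockout, and 0 with WT replicate 3 left out.

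The regulators of the antioxidant response did not pass either. Nfe2l2, which encodes NRF2, held 55.51, 35.33 and 31.32 FPKM in WT and 51.09, 42.51 and 48.74 FPKM in knockout (log2 fold change 0.19, adjusted p = 0.513, edgeR). Keap1 held 12.48, 11.74 and 14.63 FPKM in WT and 12.49, 11.68 and 12.32 FPKM in knockout (log2 fold change -0.11, adjusted p = 0.637, edgeR). Both pairs of groups overlapped, and WT replicate 1 was the highest Nfe2l2 library. NRF2 is controlled mainly by its stability, which RNA does not show.

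Among known NRF2 targets, Hmox1 and Nqo1 were both low. Hmox1 encodes heme oxygenase, which opens the heme ring, and held 4.02, 3.54 and 4.58 FPKM in WT and 0.61, 2.07 and 1.42 FPKM in knockout. It fell 2.99-fold (log2 fold change -1.58, SE 0.376, adjusted p = 0.023, edgeR), a call that was lost when any 1 of 3 libraries was left out: WT replicate 3 (-1.49, adjusted p = 0.0906), knockout replicate 1 (-1.23, adjusted p = 0.0519) or knockout replicate 3 (-1.61, adjusted p = 0.0875). Nqo1, a quinone reductase gene, was the one member below the level for testing. It held 1.08, 0.23 and 0.54 FPKM in WT and 0.16, 0.08 and 0.08 FPKM in knockout, from 24 and 4 counts (ratio 5.58, exact 95% counting interval 1.92 to 22.1).

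None of the 3 pump genes passed. Abcc1 encodes MRP1, which exports glutathione conjugates, and held 7.84, 7.71 and 9.42 FPKM in WT and 7.75, 9.55 and 9.89 FPKM in knockout (log2 fold change 0.11, adjusted p = 0.647, edgeR). Abcb1a and Abcb1b are the mouse genes of P-glycoprotein, and they are so alike that reads had to be divided between them. Abcb1a held 12.06, 11.87 and 12.98 FPKM in WT and 8.94, 12.68 and 9.13 FPKM in knockout (log2 fold change -0.28, adjusted p = 0.212, edgeR). Knockout replicate 2 alone reached the WT range, and without it Abcb1a passed (-0.44, adjusted p = 0.0334, edgeR). Abcb1b held 6.31, 9.39 and 10.23 FPKM in WT and 7.09, 7.9 and 7.42 FPKM in knockout, all inside the WT range (log2 fold change -0.22, adjusted p = 0.433, edgeR).

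By role, 3 of the 4 genes of metallothioneins and their regulator fell (1 of 2 without those tested only through WT), 3 of 8 transferases (1 of 6 without those), 3 of 8 genes of glutathione supply and use, 3 of 6 peroxiredoxins and 2 of 4 thioredoxin genes, beside 8.77% of all genes. In the NRF2 group 1 of 3 tested genes fell. None of 3 dismutase and catalase genes and none of 3 pumps passed (0 by edgeR, also at an unadjusted p under 0.05, and 0 by DESeq2 or limma). Summed over all 40, the level was 3000, 3150 and 3110 FPKM in WT and 2560, 2560 and 2510 FPKM in knockout. Sod1 alone made up 28.9% ± 1.5 of that sum in WT and 30.9% ± 0.87 in knockout (SD, n = 3), so the sum shows little of the genes with the steepest falls. Of the 15 calls, 11 held in each of the 6 fits that left out 1 library, and those of Prdx1, Prdx2, Txnrd1 and Hmox1 did not.

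Other genes of the same pathways, 176 by name, were followed to show how far the pattern reached. Of the 134 tested, 14 fell (8.77% of all genes did) and 5 rose (3.14% of all genes did), with a median of -0.04. Fewer passed without WT replicate 1 (9 fell), WT replicate 2 (3 rose), WT replicate 3 (8 fell and 2 rose) or knockout replicate 3 (8 fell and 2 rose), and 8 rose without knockout replicate 2. With limma 3 rose.

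Among metal genes 2 of 25 fell. Cox17, a copper chaperone of mitochondria, went from 135 ± 17.3 to 81.5 ± 6.6 FPKM (log2 fold change -0.75), and Commd1, which takes part in copper export, from 73.1 ± 10.3 to 49.8 ± 3.07 FPKM (SD, n = 3, here and below). Slc31a1, the copper importer that can also carry platinum drugs, was named outside the rule after its values were seen. It held 8.25, 13.46 and 10.89 FPKM in WT and 7.74, 8.37 and 5.4 FPKM in knockout (log2 fold change -0.61, adjusted p = 0.075, edgeR). Of 7 other transferases Mgst3, a microsomal enzyme, fell from 7.67 ± 0.15 to 2.52 ± 0.465 FPKM. Of 14 other glutathione genes, Ggt1, whose enzyme breaks down glutathione outside the cell, fell from 31.3 ± 5.48 to 14.8 ± 2.46 FPKM, and Esd from 37.3 ± 1.07 to 27.7 ± 2.35 FPKM.

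Of 18 other thioredoxin-like genes 3 fell and 1 rose. Txndc5, a disulfide isomerase of the endoplasmic reticulum, went from 35.7 ± 3.12 to 18 ± 3.7 FPKM, Txnl1 from 53.5 ± 17.9 to 25.5 ± 1.69 FPKM and Tmx1 from 57.1 ± 2 to 45.6 ± 1.55 FPKM. Sesn3, a sestrin, rose from 20.2 ± 0.335 to 31.9 ± 4.69 FPKM. Selenoprotein genes had 3 of 16 lower. The largest of these falls was in Selenom, a redox protein of the endoplasmic reticulum, with 3.02, 5.28 and 4.71 FPKM in WT and 0.58, 0.15 and 0.3 FPKM in knockout (log2 fold change -3.6, SE 0.488, adjusted p = 0.00125, edgeR), or -4.18 without knockout replicate 1. Selenom met the level for testing only through WT. Selenoh fell from 105 ± 12.4 to 53.4 ± 2.37 FPKM and Sephs1 from 8.61 ± 1.39 to 5.39 ± 0.0907 FPKM.

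Of 19 NRF2 partners and further targets, 2 rose and 1 fell. Bach2, which encodes a repressor related to Bach1, rose from 8.42 ± 0.608 to 14.1 ± 0.902 FPKM, and Cul3, the ubiquitin ligase scaffold that works with KEAP1, from 9.65 ± 1.09 to 14.4 ± 2.3 FPKM. Blvra, which reduces the biliverdin made by heme oxygenase, fell from 26.9 ± 4.13 to 16.4 ± 2.23 FPKM. In NADPH supply 1 of 14 fell, Mthfd2 of one-carbon metabolism (30.4 ± 3.05 to 21.8 ± 2.68 FPKM). Of 8 NADPH oxidase genes Cyba fell from 515 ± 13.5 to 367 ± 36.5 FPKM. None of 8 iron genes passed (0 by edgeR, DESeq2 or limma), while 1 had an unadjusted p under 0.05 in edgeR, and the most abundant, Lpcat3, stood at 53.9 ± 4.25 and 57.3 ± 1.52 FPKM. Of 5 other drug transporters, the ABC pump genes Abcc5 and Abcc10 rose, from 14.2 ± 0.548 to 22.9 ± 2.42 and from 1.97 ± 0.164 to 3.36 ± 0.403 FPKM.

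Several of these calls needed all 6 libraries. Esd, Tmx1 and Mthfd2 lost theirs in each fit that left 1 library out (adjusted p up to 0.0818, 0.188 and 0.151, edgeR). Commd1, Blvra and Cyba lost theirs without WT replicate 1, WT replicate 3 or knockout replicate 3 (up to 0.106, 0.1 and 0.0966), and Sesn3 without WT replicate 3 or knockout replicate 3 (up to 0.0616). Cul3 lost its call when WT replicate 2, WT replicate 3 or knockout replicate 1 or 3 was left out (up to 0.162), and Abcc10 when any WT library or knockout replicate 3 was (up to 0.119). The other 10 calls, Cox17, Mgst3, Ggt1, Txnl1, Txndc5, Bach2, Sephs1, Selenoh, Selenom and Abcc5, held in all 6 such fits.

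**Figure D4:**
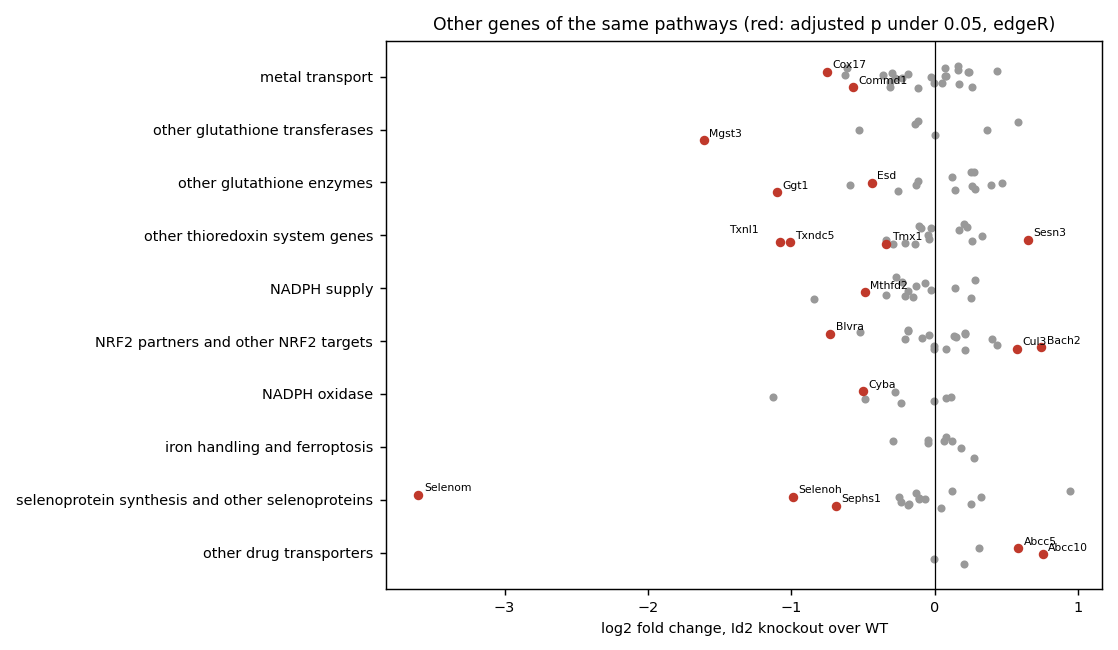
Log2 fold change, knockout over WT (x axis, log2 scale), of the 134 tested genes of the same pathways, by list. Each point is a gene, spread vertically for legibility, and the 19 named red points have an adjusted p under 0.05. Selenom lies far to the left at -3.6, and most grey points lie near 0.

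Markers of other cells and of division were read beside these values. The summed level of 12 cell cycle genes was 718, 643 and 892 FPKM in WT and 220, 298 and 208 FPKM in knockout, and all 12 fell. It thus moved with the 15 genes, and its part in their fall was not tested. The B cell list differed within groups. Of 16 B cell markers 13 were tested and 0 passed by edgeR (0 also at an unadjusted p under 0.05, with DESeq2 and with limma). They summed to 940, 3140 and 3660 FPKM in WT and 692, 2980 and 624 FPKM in knockout, with Ighm and Ighd not listed in any library. The B cell level in knockout replicate 2 was thus like that in WT replicates 2 and 3, and without knockout replicate 2 the number of redox genes that fell was 16. In that same fit 12 of the 13 B cell markers, all but Fcer2a, were lower in the knockout, with a list median of -2.02 on the log2 scale against -0.86 with all libraries. B cell markers thus moved with the redox genes once knockout replicate 2 was left out, and their part in the result was not tested.

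Red cell precursors are rich in Prdx2 and Cat. Erythroid markers summed to at most 0.57 FPKM in WT and to 10.8, 0.09 and 12.3 FPKM in knockout, with Hba-a2, Slc4a1 and Car1 not listed in any library. The platelet list summed to at most 1.08 FPKM in any library, with Pf4 and Ppbp not listed. The collagen genes Col1a1, Col1a2 and Col3a1 stood at or below 0.31 FPKM. Of the stromal list 2 genes were tested, and Sparc, which met the level for testing only through WT, fell (1.12, 4.08 and 2.45 FPKM in WT and 0.33, 0 and 0.05 FPKM in knockout). The monocyte, macrophage and neutrophil list ranged from 34.5 to 57 FPKM in WT and from 36.8 to 45.7 FPKM in knockout, with none of 7 tested genes past the threshold by edgeR or limma (0), 1 by DESeq2 and 2 at an unadjusted p under 0.05. Lyz2 was the most abundant of this list and overlapped, as did C1qa, C1qb and Ly6g. In Itgam, Cd68 and C1qc each knockout library lay below each WT library (16.8% of all genes tested did). Itgam stood at 7.91, 1.18 and 1.09 FPKM in WT and 0.37, 0.72 and 0.62 FPKM in knockout (log2 fold change -2.62, adjusted p = 0.0521, edgeR). Itgam passed without WT replicate 2 or 3, and Itgam and C1qc met the level for testing only through WT. Of the dendritic cell list 3 of 4 tested genes, Itgax, Zbtb46 and Bst2, fell, and Clec9a was not listed in any library. The sum of this list went from between 183 and 203 to between 113 and 160 FPKM. Itgax met the level for testing only through WT (2 of 3 fell without it), and Bst2 lost its call in 4 of the 6 fits that left out 1 library, namely when WT replicate 1, WT replicate 2, knockout replicate 1 or knockout replicate 3 was omitted (adjusted p up to 0.119, edgeR). Itgax, which activated CD8+ T cells can also express, stood at 12.85, 5.66 and 5.54 FPKM in WT and 0.34, 0.96 and 0.35 FPKM in knockout. Of the plasma cell list 2 of 6 genes fell, with a list median of -1.03 on the log2 scale. Mean Prdm1 went from 6.05 to 1.09 FPKM and mean Jchain from 7.68 to 2.79 FPKM, and both calls held in all 6 such fits. Mzb1 (13.5 to 4.3 FPKM, adjusted p = 0.102, edgeR), Sdc1, Irf4 and Xbp1 (75 to 76.9 FPKM) did not pass. The list sum, mostly Xbp1, ranged from 106 to 125 FPKM over WT libraries and from 92.3 to 110 FPKM over knockout libraries. It thus shows little of the falls in Prdm1 and Jchain. Itgax, Zbtb46, Bst2, Prdm1, Jchain, Sparc, Itgam, Cd68 and C1qc moved in the direction of the redox genes, and their part in the result was not tested. Their lists did not move as a whole. In the dendritic cell list, Xcr1 overlapped (log2 fold change -0.1, adjusted p = 0.836, edgeR). Siglech, too low to be tested, was higher in each knockout library than in any WT library. In the list of CD4 and regulatory T cell genes 2 rose and 1 fell of 6 tested, with sums of 75.9 to 100 FPKM in WT and 95.1 to 101 FPKM in knockout. NK cell markers summed to 36.8, 13.2 and 15.8 FPKM in WT and 15.5, 13.7 and 17.4 FPKM in knockout, with 0 of 3 tested genes past the threshold by edgeR or limma, and 1 by DESeq2 and at an unadjusted p under 0.05.

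**Figure D5:**
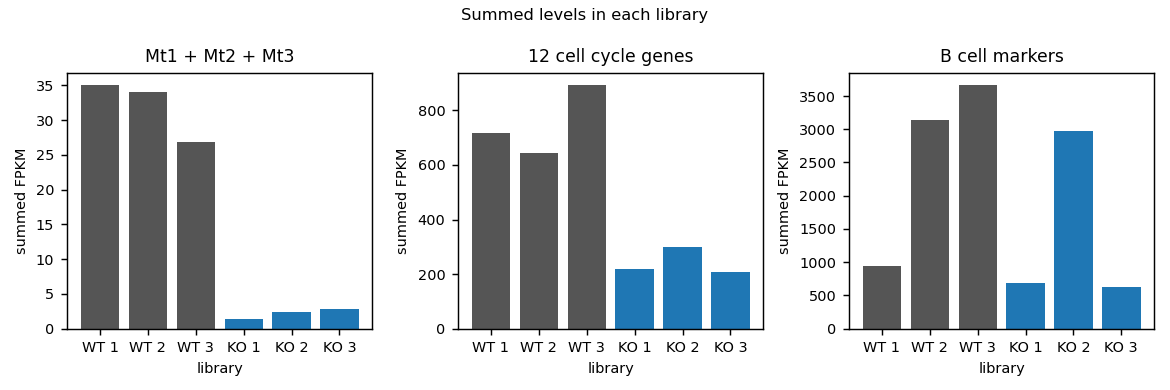
Summed FPKM in each library (y axis, linear, from 0; x axis, the 3 WT libraries in grey and the 3 knockout libraries in blue) for the metallothioneins, 12 cell cycle genes and the B cell markers. Metallothioneins and cell cycle genes are lower in all 3 knockout libraries, while the B cell sum varies within both groups, from 940 to 3660 in WT and from 624 to 2980 in knockout.

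Windows of 250 bases before the start were found in the RefSeq table for 34 of the 40 genes. A gene with several windows was counted if any of them held the motif. The shares of all windows count each window alone, so they are not counted in the same way. The metal response core lay in 6 of the 13 genes that fell and had a window and in 4 of the 20 that did not pass, against 21.4% of all windows. The 6 include Mt1, whose match lies inside its RefSeq gene interval, and Gstt1 and Prdx4, whose whole windows lie inside theirs. The 4 that did not pass include Gstm4, whose windows also lie inside its interval. These matches are thus not all before the gene. The core of the antioxidant response element, the site of NRF2, was searched as TGACNNNGC on both strands. It lay in 4 of 13 and 3 of 20, against 10.2% of all windows. Mt2 and Gstm5, which fell, and Gclm, which did not pass, held both motifs. In Mt2 and Gstm5 the motifs did not overlap. The E box forms CAGGTG and CAGCTG, which are bound by E proteins, the factors that ID2 holds back, lay in 3 of 13 and 7 of 20, against 27.7% of all windows. These matches are descriptions of letters, and no binding was measured.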

How the data were processed

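The genes, their lists and the motifs were chosen with earlier results of these data known. Per the submitters' processing notes, CASAVA, Bowtie2, RSEM and mm10 were used, with versions not given in the sources used here. The authors deposited 1 table per library with an expected count for each gene, which divides reads that match several genes, and an FPKM value. Between 25% and 26.2% of expected counts per library were not whole. Of the 40 genes, 7 had counts that were not whole in at least 1 library (Gstm1, Gstp1, Slc7a11, Prdx6, Sod2, Abcb1a and Abcb1b), by a tolerance of 0.005. Exons of 12 of the 40 overlap another gene in GENCODE M21, and the sources used here do not say whether strand was used.

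Tables were joined by gene number with pandas 2.3.3, and 16707 of 16749 numbers matched a symbol of the RefSeq annotation of GRCm38.p6, the assembly of mm10. Expected counts were rounded, scaled by TMM and tested, two-sided, with edgeR 4.0.16 in R 4.3.3 on 10890 genes with at least 1 FPKM in 3 libraries. The threshold was an adjusted p of 0.05. The standard error is the log2 fold change divided by the square root of F. Counting intervals are Clopper-Pearson intervals of counts scaled by library totals. On simulated counts with 200 of 10890 genes changed, 77% of 2-fold and 96% of 4-fold changes were recovered, with 12 false calls among 185. The simulation changed as many genes up as down and gave genes of like level the same spread between libraries. These rates therefore need not hold for the data. No libraries of a group were duplicates (chi-square per degree of freedom 5.62 to 18.6).

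Named genes were all members past the threshold, the metallothioneins, regulators, Nqo1, Hmox1, Slc7a11, Gclc and pumps, the 2 most abundant of each role, and up to 4 of each further list by p. Alternatives were DESeq2 1.42.0, its size factors, limma 3.58.1 on log2(FPKM + 1) or log2(FPKM + 0.1), other filters, removal of the 50 most abundant genes, a replicate block, and each library left out.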

Additional observations from a re-analysis of the deposited data

How the results depend on the processing

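With edgeR on all libraries 15 of the 40 genes fell and 0 rose. DESeq2, its size factors, both limma fits, no filter, removal of the 50 most abundant genes and the replicate block also gave 15 and 0. The count was 14 with filterByExpr, where Mt3 was not tested, and 11 with an FPKM minimum of 5, where Mt3, Gstm5, Gstt1 and Hmox1 were not tested. Fits that left out 1 library gave 11 to 16 lower and 0 higher. In such fits other pathway genes had 2 to 8 higher (5 in the full fit) and 8 to 13 lower (14), and all tested genes 84 to 480 higher (342) and 517 to 1082 lower (955). With limma 3 other pathway genes were higher at either pseudocount.

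Signs of genes that did not pass turned in fits without 1 library for Mtf1 (-0.13 to 0.06), Gstm4 (-0.37 to 0.21), Gstz1 (-0.17 to 0.1), Gclc (-0.23 to 0.19), Gpx1 (-0.08 to 0.09), Prdx5 (-0.17 to 0), Txn2 (-0.03 to 0.16) and Cat (-0.09 to 0.01), and Gclc was 0 with limma at a pseudocount of 0.1. The cause was not tested.

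The labels do not say whether replicate numbers pair the libraries. Deviations of same-numbered libraries correlated at 0.118, 0.075 and -0.03, and those of differently numbered ones at -0.187 to 0.135. With 3 libraries in each group these values cannot decide it. With the replicate number as a block 4 other pathway genes were higher and 13 lower, and 295 of all genes were higher and 888 lower. Depth limits the fold changes of Mt2, Mt3, Gstm5, Gstt1 and Nqo1, which had at most 4 counts in the knockout group.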

Other observations

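Genes within 100 kb of the gene clusters that fell were also read, from the RefSeq coordinates. Around the metallothioneins 3 other genes were tested, and 1 fell (8.77% of all genes did). Nup93, a nuclear pore gene, fell from 32 to 20.1 FPKM on average (log2 fold change -0.69, adjusted p = 0.00558, edgeR). Bbs2 and Ogfod1 did not pass, with log2 fold changes of 0.2 and 0.03. Around Gstt1 and Gstt2 5 others were tested, and 2 fell (8.77% of all genes did). Cabin1, Smarcb1 and Chchd10 did not pass, with log2 fold changes of 0.29, -0.06 and -0.38. The neighboring genes Ddt and Mif, which encode related tautomerases, fell by 0.69 and 0.44 on the log2 scale (adjusted p = 0.0214 and 0.0161, edgeR). Mif, a cytokine gene, went from 336 to 250 FPKM on average. Neither Ampd2 nor Gnai3 beside the Gstm genes passed (log2 fold changes -0.15 and -0.04), and Acot9, the one tested neighbor of Prdx4, stood at 61 and 60 FPKM.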
